A study of Homo sapiens with 6 samples.

Results

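The mRNA levels of 10 genes of the Hippo pathway were described in K1 cells, an established human line that derives from papillary thyroid carcinoma (PTC). The genes were YAP1 and WWTR1 (which encodes TAZ), the 4 TEAD genes, the kinase genes LATS1 and LATS2, and the YAP target genes AMOTL2 and ANKRD1. They were found by their gene symbol, and all 10 were among the 20522 rows of each library and among the 13109 genes tested. The groups compared were NC (K1 cells transfected with a negative control small interfering RNA, 3 libraries) and si-NEAT1_2 (K1 cells transfected with a small interfering RNA against the long transcript of NEAT1, 3 libraries). All libraries therefore came from transfected cells of 1 line, and untransfected cells were not analysed here. The labels give neither the time after transfection nor whether the replicates were separate cultures, so p-values measure only the spread between these libraries, which may be technical. The level of NEAT1 was not analysed here, so how far it was depleted was not checked in these libraries. A further deposited table, called the group table, holds a single value for each gene and group.

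The Hippo pathway is a kinase cascade that restrains cell proliferation and organ size. The kinases LATS1 and LATS2, activated by the upstream kinases STK3 and STK4, phosphorylate the coactivators YAP and TAZ and keep them in the cytoplasm. When the cascade is off, YAP and TAZ enter the nucleus, bind the TEAD transcription factors and switch on target genes that include CCN1, CCN2, ANKRD1, AMOTL2 and LATS2. The activity of YAP and TAZ is thus set largely by phosphorylation and location of the proteins, which mRNA levels do not measure.

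TEAD factors recognise DNA that holds the letters GGAATG, and the promoters of those genes with these letters before the start site are shown because 3 of the 10 genes are known targets of the YAP and TEAD complex. The RefSeq table of promoters (GRCh38.p14, 250 bases before to 50 bases after a start site) matched 8 of the 10 genes, with 12 windows, and did not match TEAD1 or TEAD4. GGAATG or its reverse complement CATTCC was in 4 of these 12 windows, of AMOTL2, ANKRD1, YAP1 and LATS2, against 14.0% of all 35116 windows. The 250 bases before the start site are printed 5′ to 3′ on the strand of the gene, with the motif in capitals. The ANKRD1 window is chr10:90921088-90921337 on the minus strand, and the motif starts 220 and 128 bases before the start site. The AMOTL2 window is chr3:134374448-134374697 on the minus strand, and the motif starts 69 bases before the second of its start sites in the table. The YAP1 window is chr11:102110197-102110446 on the plus strand, and the motif starts 162 bases before the start site. In LATS2 the motif lies after the start site and is not printed. The window of CCN2, a classical YAP target that is not among the 10 genes, is chr6:131951373-131951622 on the minus strand, and holds the motif 169, 104 and 95 bases before the start site.
ANKRD1: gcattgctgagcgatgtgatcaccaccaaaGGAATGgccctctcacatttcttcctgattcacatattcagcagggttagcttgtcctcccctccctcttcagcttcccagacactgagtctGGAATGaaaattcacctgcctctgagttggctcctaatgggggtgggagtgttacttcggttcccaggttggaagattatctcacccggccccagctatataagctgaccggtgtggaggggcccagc
AMOTL2: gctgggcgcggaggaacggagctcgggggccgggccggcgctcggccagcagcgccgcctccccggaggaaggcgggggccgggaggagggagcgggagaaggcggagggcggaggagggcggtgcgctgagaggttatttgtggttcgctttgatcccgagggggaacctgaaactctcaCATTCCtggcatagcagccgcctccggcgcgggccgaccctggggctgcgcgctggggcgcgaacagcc
YAP1: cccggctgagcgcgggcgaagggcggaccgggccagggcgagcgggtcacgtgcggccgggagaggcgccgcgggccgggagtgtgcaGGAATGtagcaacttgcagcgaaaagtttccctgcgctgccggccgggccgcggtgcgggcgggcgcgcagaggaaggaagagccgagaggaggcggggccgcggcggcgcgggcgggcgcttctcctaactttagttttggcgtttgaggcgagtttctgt
CCN2: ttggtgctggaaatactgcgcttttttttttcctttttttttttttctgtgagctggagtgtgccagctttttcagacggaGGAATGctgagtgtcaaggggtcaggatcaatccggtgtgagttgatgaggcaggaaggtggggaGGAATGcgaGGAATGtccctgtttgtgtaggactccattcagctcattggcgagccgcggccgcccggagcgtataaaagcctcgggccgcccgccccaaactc
These matches describe the sequence and measure no binding in K1 cells.

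Depth was similar among the libraries, with total counts between 22798631 and 27066025. The thyroid transcription factor PAX8 was between 113 and 169 FPKM (fragments per kilobase of transcript, scaled to the depth of the library) and the epithelial keratin KRT8 between 1149 and 1586 FPKM in the 6 libraries, whereas NKX2-1, TSHR and SLC5A5 were at most 0.08 FPKM. Among further thyroid and epithelial markers, EPCAM was at most 1.73 FPKM and CDH1 at most 0.38, FOXE1 at most 8.78 and TG at most 2.99. The 5 leukocyte and 3 endothelial markers were at most 0.27 FPKM, and of the 5 fibroblast markers only LUM exceeded 3 FPKM, at 16.2 to 25.0. LUM, a proteoglycan of the matrix, was lower in every si-NEAT1_2 library than in every NC library, with a log2 fold change of -0.39 (adjusted p = 0.170, edgeR) and of -0.06 after the correction described below, and its part in the results was not tested. The libraries differed in how expression depended on base composition. The deviation of each gene from its mean over the libraries correlated with the GC content of its transcript across genes at Spearman's rho of -0.26, -0.66 and -0.35 for NC and -0.15, 0.52 and 0.62 for si-NEAT1_2 (replicates in order), where genes are not independent. Genes of low GC content were therefore relatively low in si-NEAT1_2 replicates 2 and 3 and high in NC replicate 2, and each fold change below is also given with trends of GC content and transcript length removed per library.

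None of the 10 genes passed when a 2-fold difference and an adjusted p under 0.05 were both required. With p-values of the quasi-likelihood test in edgeR, adjusted by Benjamini-Hochberg, 0 of 10 genes passed, and of all 13109 genes 0% did. At an unadjusted p under 0.05, 4 of the 10 were lower after si-NEAT1_2 (LATS1, YAP1, LATS2 and TEAD1) against 12.9% of all genes, and 1 was higher (TEAD2) against 11.2%. Of the 10, 2 were lower without NC replicate 2 (4.08% of all genes) or without si-NEAT1_2 replicate 2 (9.38%). None of the 10 was higher without NC replicate 1 (6.78% of all genes) or NC replicate 2 (4%). The same held without si-NEAT1_2 replicate 1 (15%) or si-NEAT1_2 replicate 3 (8.58%). The depth-scaled counts (CPM, with TMM library factors) of 3 genes were lower in every si-NEAT1_2 library than in every NC library (YAP1, LATS1 and LATS2), and those of TEAD2 were higher in every one, while the values of the other 6 genes overlapped. Among all genes tested, 14.1% were lower and 15.4% were higher without overlap. The median log2 fold change of the 10 genes was -0.18, beside 0.01 for all genes tested. In bulk RNA, less RNA per cell and fewer cells that express a gene cannot be told apart.

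**Figure D1:**
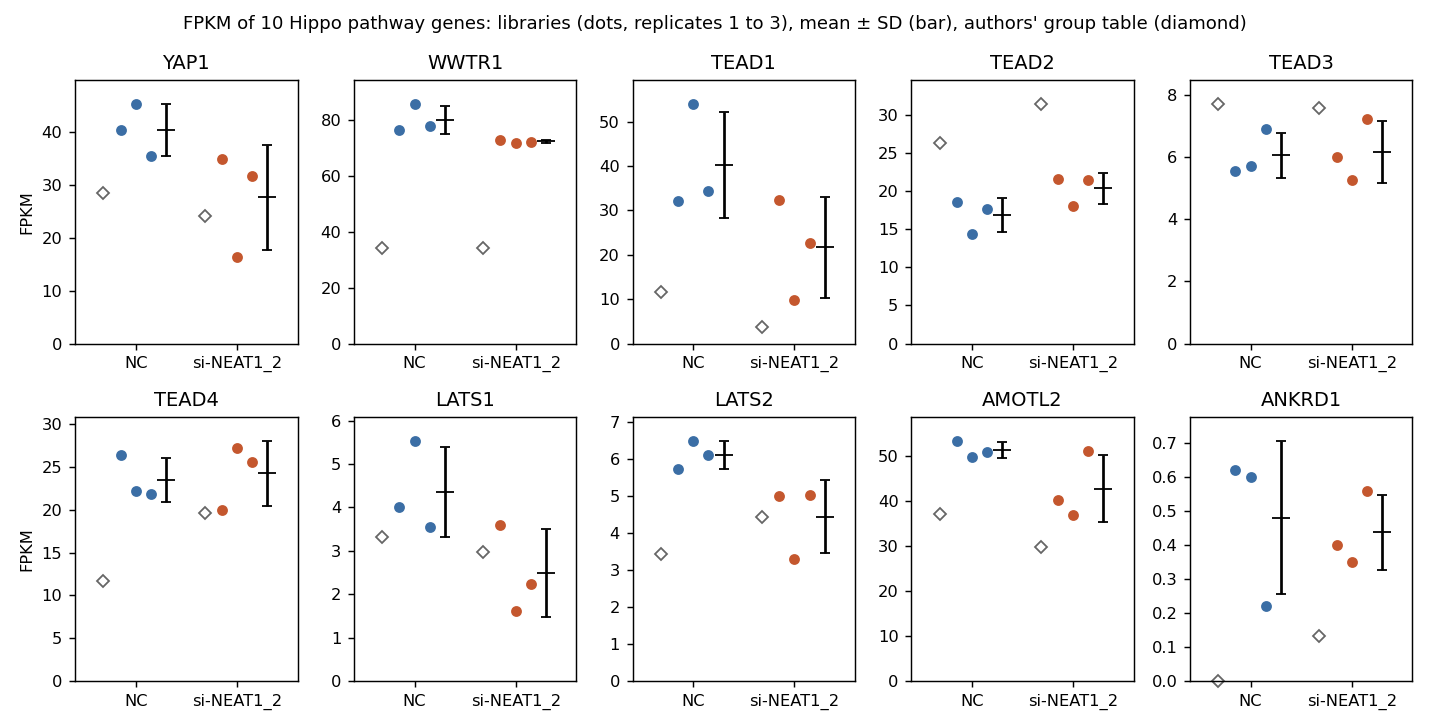
FPKM (vertical axis, linear, from 0) of the 10 genes in the NC and si-NEAT1_2 libraries. Dots are libraries in the order of replicates 1 to 3, horizontal bars with whiskers are the mean ± SD (n = 3), and open diamonds are the authors' group table. YAP1, WWTR1 and LATS2 had no overlap between the groups in FPKM. The share of all genes without overlap is given in CPM only, so these genes cannot be set against it. The lowest dot of YAP1, TEAD1, LATS1 and LATS2 was si-NEAT1_2 replicate 2.

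YAP1 (ENSG00000137693, chr11:102110461-102233423, plus strand, GRCh38) encodes the coactivator YAP. In replicates 1, 2 and 3, the NC libraries had 40.5, 45.4 and 35.5 FPKM and the si-NEAT1_2 libraries 34.9, 16.4 and 31.8 FPKM. Every si-NEAT1_2 library was below every NC library, although si-NEAT1_2 replicate 1 and NC replicate 3 were close and si-NEAT1_2 replicate 2 stood far below the rest. In CPM, YAP1 reached 160 ± 12.7 (SD, n = 3) in NC and 110 ± 30.8 (SD, n = 3) in si-NEAT1_2, with a two-sided exact permutation p of 0.10, the smallest that 3 libraries against 3 allow. YAP1 had a log2 fold change of -0.54 with a standard error of 0.188 (adjusted p = 0.170, edgeR's quasi-likelihood test). It was -0.35 without si-NEAT1_2 replicate 2, and -0.74 without si-NEAT1_2 replicate 1, where the adjusted p was 0.0495 but the difference stayed under 2-fold (range of the adjusted p over all alternatives 0.0495 to 0.557). The YAP1 transcript has a GC content of 43.5%, and with the trends of GC content and length removed the log2 fold change was -0.29 (adjusted p = 0.256, edgeR).

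WWTR1 (ENSG00000018408, chr3:149517235-149736714, minus strand) encodes TAZ, the close relative of YAP. It was the most abundant of the 10 genes, at 76.3, 85.6 and 77.5 FPKM in the NC libraries and 72.9, 71.7 and 72.01 FPKM in the si-NEAT1_2 libraries. The si-NEAT1_2 values lay close together and below all NC values on this scale, but in CPM the groups overlapped, at 234 ± 26.9 (SD, n = 3) against 207 ± 11.96 (SD, n = 3). WWTR1 had a log2 fold change of -0.18 with a standard error of 0.127 (adjusted p = 0.385, edgeR), and it turned to 0.17 (adjusted p = 0.342) with the trends removed, so that its direction depends on that step.

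WWTR1 exceeded YAP1 in every library. The ratio of WWTR1 to YAP1 FPKM was 1.89, 1.89 and 2.18 in the NC libraries and 2.09, 4.37 and 2.27 in the si-NEAT1_2 libraries. Only si-NEAT1_2 replicate 2 stood apart, and the groups overlapped (two-sided exact permutation test, n = 3 and 3, p = 0.20). The summed FPKM of both coactivator genes was 120 ± 9.49 (SD, n = 3) in NC and 99.9 ± 10.4 (SD, n = 3) in si-NEAT1_2, lower in every si-NEAT1_2 library than in every NC library (two-sided exact permutation test, p = 0.10, the smallest possible).

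The TEAD genes encode the DNA-binding partners of YAP and TAZ. TEAD1 (ENSG00000187079, chr11:12674591-12944483, plus strand) had an FPKM of 32.2, 54.0 and 34.4 in the NC libraries and 32.4, 9.87 and 22.7 in the si-NEAT1_2 libraries. The highest value was in NC replicate 2 and the lowest in si-NEAT1_2 replicate 2, and si-NEAT1_2 replicate 1 lay within the NC range. Its log2 fold change was -0.75 with a standard error of 0.304 (adjusted p = 0.182, edgeR). It was -0.47 without si-NEAT1_2 replicate 2 and -1.12 without si-NEAT1_2 replicate 1. Omitting NC replicate 2 gave -0.49. The longest coding transcript of TEAD1 has 8477 bases and a GC content of 41.3%. Its log2 fold change was -0.35 (adjusted p = 0.349, edgeR) with the trends removed.

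TEAD2 (ENSG00000074219, chr19:49340595-49362457, minus strand) had an FPKM of 18.6, 14.4 and 17.7 in NC and 21.6, 18.1 and 21.5 in si-NEAT1_2. In CPM it was 33.2 ± 3.57 (SD, n = 3) in NC and 42.4 ± 2.59 (SD, n = 3) in si-NEAT1_2 without overlap (two-sided exact permutation test, p = 0.10, the smallest possible), whereas in FPKM the groups overlapped. TEAD2 had a log2 fold change of 0.35 with a standard error of 0.139 (adjusted p = 0.179, edgeR), and 0.09 with the trends removed. TEAD4 (ENSG00000197905, chr12:2959330-3040673, plus strand) had an FPKM of 26.5, 22.2 and 21.8 in NC and 20.0, 27.2 and 25.5 in si-NEAT1_2. Its log2 fold change was 0.21 (adjusted p = 0.449), and -0.18 with the trends removed. TEAD3 (ENSG00000007866, chr6:35473597-35497076, minus strand) was the least abundant, between 5.24 and 7.22 FPKM, with a log2 fold change of 0.08 (adjusted p = 0.770) and of -0.15 with the trends removed. The directions of TEAD3 and TEAD4 thus both turned with that step. The transcripts of TEAD2, TEAD3 and TEAD4 have a GC content of 58.4%, 59.8% and 60.4%, against 41.3% for TEAD1.

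The makeup of the TEAD transcripts was compared within each library, which removes the library size but not the trends of GC content and length. The shares below were not corrected for these trends. TEAD1 held 38.9%, 56.1% and 42.6% of the summed TEAD FPKM in the NC libraries, against 40.5%, 16.3% and 29.5% in the si-NEAT1_2 libraries. The groups overlapped (two-sided exact permutation test, p = 0.20, n = 3 and 3). TEAD1 held the largest share in 4 of 6 libraries, and TEAD4 did in si-NEAT1_2 replicates 2 and 3, with 45.1% and 33.2%. The share of TEAD2 was 19.7% ± 4.20 (SD, n = 3) in NC and 28.3% ± 1.48 (SD, n = 3) in si-NEAT1_2, without overlap (two-sided exact permutation test, p = 0.10, the smallest possible). The summed TEAD FPKM was 82.8, 96.3 and 80.8 in NC and 80.0, 60.4 and 77.0 in si-NEAT1_2. It was lower in every si-NEAT1_2 library than in every NC library (two-sided exact permutation test, p = 0.10, the smallest possible). Without replicate 2 of each group the values were close.

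**Figure D2:**
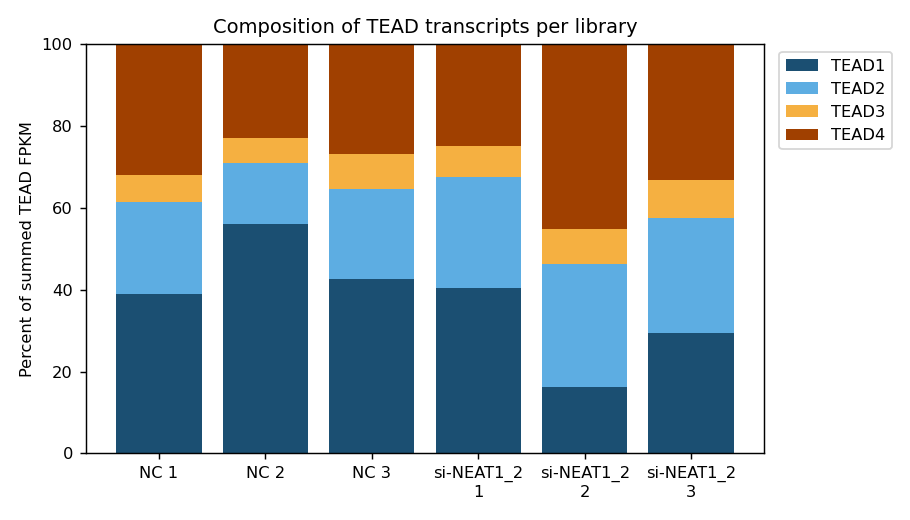
Share of each TEAD gene in the summed TEAD FPKM (vertical axis, percent) in each of the 6 libraries. TEAD1 ranged from 56.1% in NC replicate 2 to 16.3% in si-NEAT1_2 replicate 2, while TEAD3 stayed between 5.93% and 9.38%.

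The LATS kinases inhibit YAP and TAZ, and LATS2 is also a target gene of YAP. LATS1 (ENSG00000131023, chr6:149658153-149718256, minus strand) had an FPKM of 4.01, 5.53 and 3.55 in NC and 3.60, 1.61 and 2.24 in si-NEAT1_2, overlapping between NC replicate 3 and si-NEAT1_2 replicate 1. In CPM it was 25.9 ± 5.13 (SD, n = 3) and 15.4 ± 5.06 (SD, n = 3), where the highest si-NEAT1_2 value (20.87) and the lowest NC value (20.94) were almost equal. Its log2 fold change was -0.75 with a standard error of 0.235 (adjusted p = 0.170, edgeR). Without si-NEAT1_2 replicate 1 LATS1 passed both thresholds, at -1.05 (adjusted p = 0.0493, edgeR), within a range of 0.0493 to 0.557 over all alternatives. LATS1 had the lowest GC content of the 10 genes, 39.7%, and its log2 fold change was -0.30 (adjusted p = 0.272) with the trends removed.

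LATS2 (ENSG00000150457, chr13:20973032-21061547, minus strand) had an FPKM of 5.74, 6.49 and 6.10 in NC and 5.0, 3.30 and 5.02 in si-NEAT1_2. All NC values were close together and above all si-NEAT1_2 values. LATS2 had a log2 fold change of -0.41 with a standard error of 0.162 (adjusted p = 0.179, edgeR), and it was almost the same, -0.38 (adjusted p = 0.175), with the trends removed. Leaving out libraries gave -0.49 to -0.27, the weakest without si-NEAT1_2 replicate 2. The GC content of LATS2 is 51.8%, near the median of 48.4% over the genes tested. LATS2 exceeded LATS1 in every library, with a ratio between 1.17 and 2.24.

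AMOTL2 (ENSG00000114019, chr3:134355874-134375479, minus strand) encodes a scaffold protein that binds YAP and holds it out of the nucleus. Its FPKM was 53.4, 49.8 and 51.0 in NC and 40.2, 36.9 and 51.1 in si-NEAT1_2. Replicates 1 and 2 of si-NEAT1_2 were below every NC library, and si-NEAT1_2 replicate 3 was within the NC range. AMOTL2 had a log2 fold change of -0.19 with a standard error of 0.134 (adjusted p = 0.377, edgeR), -0.32 without si-NEAT1_2 replicate 3, and -0.30 (adjusted p = 0.175) with the trends removed.

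ANKRD1 (ENSG00000148677, chr10:90912096-90921276, minus strand), an ankyrin repeat protein of the nucleus and the sarcomere and one of the most used YAP target genes, was nearly silent in K1 cells. Its counts were 33, 27 and 11 in NC and 19, 18 and 28 in si-NEAT1_2, which is at most 0.62 FPKM. Both the lowest and the highest value were in NC. Its log2 fold change was -0.07 with a standard error of 0.475 (adjusted p = 0.938, edgeR), and leaving out libraries gave -0.42 to 0.16. No difference was detected with these counts.

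**Figure D3:**
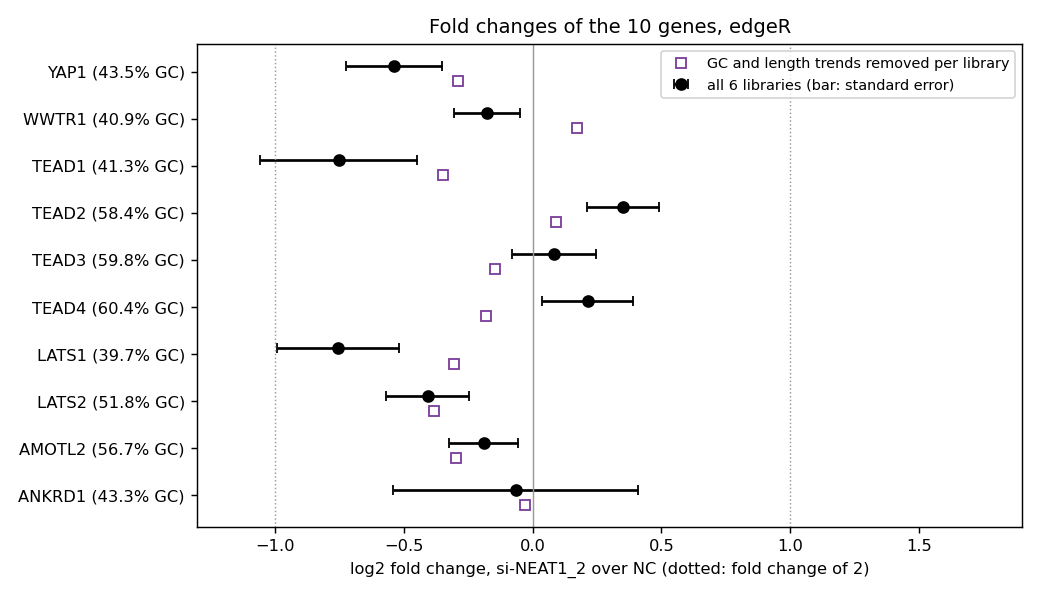
Log2 fold change of si-NEAT1_2 over NC (horizontal axis) for the 10 genes, with the GC content of the transcript beside each name. Black dots with bars are the values from all 6 libraries ± standard error, open purple squares are the values after trends with GC content and length were removed, and dotted lines mark a fold change of 2. LATS2 stayed at -0.41 and -0.38, whereas TEAD1 moved from -0.75 to -0.35 and WWTR1 from -0.18 to 0.17.

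Ordered by mean FPKM over the 6 libraries, the genes were WWTR1, AMOTL2, YAP1, TEAD1, TEAD4, TEAD2, TEAD3, LATS2, LATS1 and ANKRD1. WWTR1 was above AMOTL2 without overlap, TEAD2 above TEAD3, and LATS1 above ANKRD1. The ranges of all other neighbours in this order overlapped, although AMOTL2 exceeded YAP1 and LATS2 exceeded LATS1 in 6 of 6 libraries.

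Across the 6 libraries, the levels of YAP1, TEAD1, LATS1 and LATS2 varied together. Pearson's r of log2 CPM was 0.96 between YAP1 and TEAD1, 0.95 between YAP1 and LATS1, 0.96 between YAP1 and LATS2 and 0.97 between TEAD1 and LATS1. TEAD4 varied the other way, with r of -0.90 against both TEAD1 and LATS1. ANKRD1 had an r between -0.33 and 0.22 with the other 9 genes. These points are 6 libraries that differ in base composition, and the correlations are descriptions. In a search of 5653 well-expressed genes (average log2 CPM 5 or higher), those most like YAP1 were TMEM178B (r = 0.997), PPFIBP1 (r = 0.997) and ARHGEF12 (r = 0.996), and 441 of them had an r above 0.95, so that the pattern of YAP1 was shared by many genes. For ANKRD1 they were DERL1 (r = 0.962), DHX38 (r = 0.931) and TSPYL1 (r = 0.898), against counts of at most 33. The sample descriptions give the libraries a code of unstated meaning. Groups were compared within code L2 (NC 2 and 3, si-NEAT1_2 2) and code L3 (NC 1, si-NEAT1_2 3). This comparison had no test and was chosen after seeing the data. The log2 fold change was -1.06 and -0.44 for YAP1, -1.78 and -0.31 for TEAD1 and -1.37 and -0.55 for LATS1. It was -0.78 and -0.17 for LATS2, -0.28 and -0.01 for AMOTL2 and -0.28 and -0.10 for WWTR1. TEAD2 was at 0.30 and 0.28, and TEAD4 at 0.57 and 0.02. TEAD3 (-0.10 and 0.40) and ANKRD1 (0.09 and -0.10) changed direction between the codes.

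Further target genes of YAP and TAZ were compared with the 10 genes. CCN2 (formerly CTGF), a secreted matricellular protein, had an FPKM of 51.7, 59.3 and 59.6 in NC and 43.8, 39.1 and 42.3 in si-NEAT1_2. In CPM, the 3 si-NEAT1_2 libraries were alike, at 99.7 ± 0.593 (SD, n = 3), and all below NC, at 130 ± 9.40 (SD, n = 3), a difference of -23.4% (two-sided exact permutation test, p = 0.10, the smallest possible). CCN2 had a log2 fold change of -0.38 with a standard error of 0.117 (adjusted p = 0.170, edgeR), between -0.46 and -0.36 when any 1 library was left out, and -0.56 (adjusted p = 0.0649, edgeR) with the trends removed. CCN1 (formerly CYR61), a relative of CCN2, had an FPKM of 381, 395 and 414 in NC and 286, 323 and 343 in si-NEAT1_2, also without overlap. Its log2 fold change was -0.25 with a standard error of 0.134 (adjusted p = 0.255, edgeR), and -0.41 (adjusted p = 0.118) with the trends removed. It was -0.17 without si-NEAT1_2 replicate 1 and -0.15 with the library code as a covariate. For both genes the difference was larger after removal of the trends, as it was for AMOTL2, and none of them passed the threshold. The GC trend differed between the groups, so that step cannot tell a technical difference from an effect of si-NEAT1_2.

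Of a list of 19 YAP target genes that includes CCN1 and CCN2, all were tested, and 15 had a negative log2 fold change, with a median of -0.25. Of all 13109 genes tested, 6434 had a negative log2 fold change. None passed both thresholds, and at an unadjusted p under 0.05 7 were lower and 0 were higher, against 12.9% and 11.2% of all genes. Without NC replicate 2, 4 were lower, against 4.08% of all genes. The 6 with the lowest p were RBMS3 (an RNA-binding protein, -0.63), CRIM1 (a transmembrane regulator of bone morphogenetic proteins, -0.58), CCN2, CCDC80 (a secreted matrix protein, -0.38), TGFB2 (a growth factor of the TGF-beta family, -0.44) and MYOF (a membrane repair protein, -0.43). CRIM1 was 65.1 ± 7.56 FPKM (SD, n = 3) in NC and 41.9 ± 10.3 (SD, n = 3) in si-NEAT1_2. With DESeq2 the adjusted p was 0.0344 for RBMS3 and 0.0381 for CRIM1, both under 2-fold, and for RBMS3 it was 0.0493 in edgeR without si-NEAT1_2 replicate 1. Over all alternatives it reached 0.903 for RBMS3 and 0.557 for CRIM1, and MYOF was at -0.22 without si-NEAT1_2 replicate 2. With the trends removed the log2 fold changes were -0.42 for CRIM1, -0.24 for MYOF, -0.07 for RBMS3, -0.05 for TGFB2 and 0.07 for CCDC80. The signature then had a median of -0.17, with 5 genes lower and 0 higher at an unadjusted p under 0.05. Of all genes, 7.96% were lower and 7.89% higher in that fit. In the same fit, 4 of the 10 genes described here were lower at that level (LATS2, AMOTL2, YAP1 and LATS1) and 0 were higher.

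The other genes of the pathway lie upstream of YAP or act beside it. Of 30 such genes, 28 were tested, and VGLL1 and VGLL2, cofactors of TEAD, did not pass the filter on low counts. None passed both thresholds, 22 had a negative log2 fold change with a median of -0.27, and 10 were lower and 0 higher at an unadjusted p under 0.05, against 12.9% and 11.2% of all genes. The 6 with the lowest p were FRMD6 (a membrane-associated activator of the cascade, -0.50), TAOK1 (a kinase upstream of STK3, -0.85), STK3 (which phosphorylates LATS kinases, -0.41), MOB1B (a LATS cofactor, -0.78), WWC2 (a LATS activator, -0.51) and STK38L (a kinase related to LATS, -0.61). Without si-NEAT1_2 replicate 1, MOB1B passed both thresholds at -1.15 (adjusted p = 0.0493, edgeR), where its adjusted p over all alternatives ranged up to 0.61, and TAOK1 was at -1.17 (adjusted p = 0.0502). Without NC replicate 2 MOB1B was at -0.49, and without si-NEAT1_2 replicate 2 WWC2 was at -0.31 and TAOK1 at -0.57. With the trends removed these log2 fold changes were -0.20, -0.34, -0.11, -0.21, -0.15 and -0.17, the median of the 28 genes was -0.12, and 3 were lower at an unadjusted p under 0.05, against 7.96% of all genes. Without NC replicate 2, 1 of the 28 was lower at that level against 4.08% of all genes, and the median was -0.26. The median GC content of the 28 genes was 46.0%, against 48.4% for all genes, and their median transcript length was 6805 bases, against 3481.

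**Figure D4:**
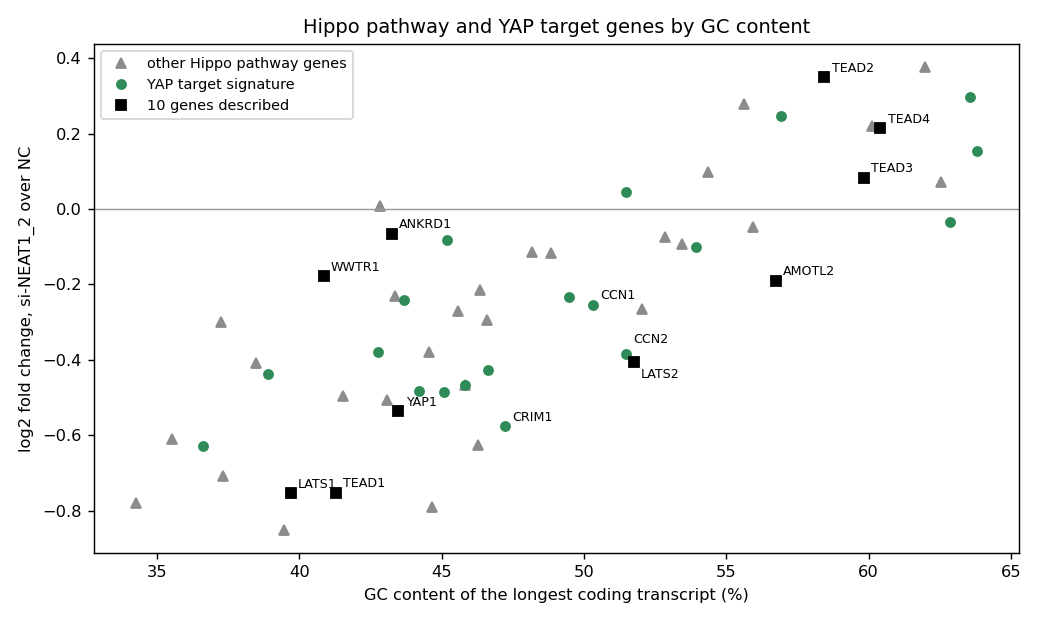
Log2 fold change of si-NEAT1_2 over NC (vertical axis) against the GC content of the longest coding transcript (horizontal axis, percent) for the 10 genes (black squares), 28 other Hippo pathway genes (grey triangles) and 19 YAP target genes (green circles). Most genes above 54% GC lay above 0, and AMOTL2 was the lowest of them at -0.19. Of the 10 genes, 5 had a GC content of 39.7% to 43.5%. These 5 spread from -0.75 for LATS1 and TEAD1 and -0.54 for YAP1 to -0.18 for WWTR1 and -0.07 for ANKRD1.

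The same genes were read in the authors' group table, which has no replicates. Its values did not match the libraries: of 10292 genes with at least 1 FPKM in every library, 12.1% had a group value within the range of the NC libraries and 19.2% within that of the si-NEAT1_2 libraries. Of the 10 genes, 0 of 10 NC values lay within the range of the NC libraries, 8 being below and 2 (TEAD2 and TEAD3) above. Of the si-NEAT1_2 values, those of YAP1, LATS1 and LATS2 lay within the range, 5 were below and 2 above. WWTR1 had 34.0 FPKM in both columns, below the 71.7 to 85.6 FPKM of the libraries. ANKRD1 was listed at 0 for NC and at 0.13 FPKM for si-NEAT1_2.

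In the group table TEAD1 had 11.5 FPKM for NC and 3.64 for si-NEAT1_2, a log2 ratio of -1.66, and TEAD4 had 11.7 and 19.6 FPKM, a log2 ratio of 0.75. The order within the TEAD family was therefore also different there, with TEAD2 the most abundant at 26.4 and 31.5 FPKM. The log2 ratio was -0.24 for YAP1, -0.32 for AMOTL2, -0.16 for LATS1 and 0.26 for TEAD2, beside a median of -0.24 over 12420 genes. LATS2 had 3.42 FPKM for NC and 4.44 for si-NEAT1_2, a log2 ratio of 0.38, opposite to the libraries. CCN2 had 58.4 and 25.2 FPKM, a log2 ratio of -1.21, whereas CCN1 had 210 FPKM in both columns. No error can be given for these ratios.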

How the data were processed

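mRNA-seq of 6 K1 libraries (3 NC, 3 si-NEAT1_2) was analysed, grouped by the labels. The authors mapped reads with TopHat2 2.1.1 and quantified them with RSEM per the paper's methods, whereas the submitters' processing notes list fastp 0.18.0, Bowtie2 2.2.8, HISAT2, StringTie 1.3.1 and GRCh38. Which of these made the tables is not given in the sources used here. The deposited expected counts are estimates per gene, not normalized, of which 9.19% to 9.61% per library are not whole, and the FPKM values were deposited by the authors beside them. The number of unmapped columns of per-sample values was 0.

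Expected counts were rounded, filtered with filterByExpr, scaled by TMM and tested over all genes in edgeR 4.0.16 (R 4.3.3) by its quasi-likelihood method, with Benjamini-Hochberg adjustment. Standard errors were derived from the F statistic. For a single quantity, the libraries were permuted exactly and two-sided. The trend correction fitted splines (5 degrees of freedom) of GC content and log length of the longest coding transcript in GENCODE release 29 per library, used as offsets. The alternatives were RLE or no normalization, other filters (none, or 10 counts in every library), DESeq2 1.42.0, limma-trend (limma 3.58.1) on log2(FPKM + 1) or log2(FPKM + 0.1), a replicate block, a covariate for the L code in the sample descriptions, and leaving out each library in turn. The fit was tested on simulated counts without trends of GC content or length, so that test does not cover such trends. The members and lists were chosen with earlier results of these data known. Other genes were named by rule: CCN1, CCN2, the 6 genes per list with the lowest unadjusted p under 0.05, and the 3 genes most like YAP1 or ANKRD1. PTPN14 was named because it is on both lists. Gene positions are from GENCODE release 29, by Ensembl identifier. The value of 1 marker gene is not reported here.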

Additional observations from a re-analysis of the deposited data

How the results depend on the processing

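None of the 10 genes was called under any alternative except LATS1, which was 1 gene lower without si-NEAT1_2 replicate 1 (leave-one-out range 0 to 1 lower and 0 higher). Over all genes, 0 were called higher and 0 lower, and the counts were 25 and 48 with DESeq2, 9 and 9 without a filter, 1 and 3 with the GC and length correction and 87 and 126 with an unadjusted p under 0.05 and a 2-fold difference. There was 1 lower without normalization factors and with limma-trend on log2(FPKM + 0.1). With each library omitted in turn, between 0 and 32 genes were higher and between 0 and 184 lower, the most without si-NEAT1_2 replicate 1. The log2 fold changes of YAP1, TEAD1, TEAD2, LATS1 and AMOTL2 kept their direction under all alternatives, and LATS2 did except in the group table (0.38). In the group table, however, YAP1 (-0.24) and LATS1 (-0.16) were not below the median of -0.24 over 12420 genes. WWTR1 was reversed with the GC and length correction (0.17, and 0.17 with the replicate block added) and in the group table (0.0021). TEAD3 was reversed with that correction (-0.15, and -0.15 with the block), without si-NEAT1_2 replicate 3 (-0.0341, leave-one-out range -0.03 to 0.18), in the group table (-0.0290) and among the libraries of code L2 (-0.10). TEAD4 was reversed with the correction (-0.18, and -0.18 with the block). ANKRD1 was reversed with the block (0.0024, and 0.0180 with the correction), without NC replicate 1 (0.16), NC replicate 2 (0.11), si-NEAT1_2 replicate 1 (0.0139) or si-NEAT1_2 replicate 2 (0.0245, leave-one-out range -0.42 to 0.16), and for code L2 (0.0855). CCDC80 was reversed with the correction (0.0730, and 0.0640 with the block). The cause was not tested.

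The median of the YAP target signature (-0.25) was -0.32 without normalization factors, where the median of all genes was -0.0533, -0.32 under limma-trend with the pseudocount of 0.1, -0.17 after the correction and -0.17 with the block added, and -0.35 to -0.22 when a library was left out. The other Hippo genes had medians of -0.36 to -0.15 when a library was left out, the weakest without si-NEAT1_2 replicate 2.

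The deviations of libraries with the same replicate number from their group means correlated at -0.28, -0.36 and -0.0080. The trends of GC content and length were not removed from these deviations, so they cannot show whether the cultures were paired. A shared number was not taken as a pair in the main fit. The study's methods speak of pairs of cells, without saying which libraries form them. Adding the replicate block left 0 calls, higher or lower, and YAP1 at -0.57. At an unadjusted p under 0.05, 2 of the 10 genes were then lower and 0 higher, against 7.04% and 4.69% of all genes. Without the block the counts were 4 and 1, against 12.9% and 11.2% of all genes. Counts of at most 33 limited ANKRD1.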

Other observations

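The deposited counts and FPKM values imply a transcript length for each gene and library, the count divided by the FPKM and the library total, which moves when the quantification assigns reads to other isoforms. For LATS2, TEAD3 and ANKRD1 this length was nearly constant, at 5.50 to 5.51 kb, 2.98 to 2.99 kb and 1.97 to 1.99 kb. It varied most for LATS1, from 5.29 kb in NC replicate 1 to 7.37 kb in NC replicate 3. TEAD1 ranged from 5.17 kb in NC replicate 1 to 6.52 kb in si-NEAT1_2 replicate 2, WWTR1 from 2.57 kb in si-NEAT1_2 replicate 2 to 3.20 kb in NC replicate 2, and YAP1 from 3.63 kb to 4.35 kb. TEAD4 was at 1.36 to 1.52 kb in NC and 1.53 to 1.59 kb in si-NEAT1_2. The trend correction used the length of the longest coding transcript, 8477 bases for TEAD1, 5030 for WWTR1, 5398 for YAP1 and 7517 for LATS1. These exceed the implied lengths of the same genes in every library, whereas LATS2 (5511), TEAD3 (2983) and ANKRD1 (1979) were close to theirs. How this affected the corrected fold changes was not tested. No isoform values were analysed here.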
